A study of Danio rerio with 2 samples.

Results

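The 6 genes spi2, lpar5a, ptgdsb.1, pmp22b, zgc:171686 and eif4ebp1 were taken as leading genes of a small cluster of blood progenitor-like cells in sorted trunk cells of the zebrafish embryo. They were picked by symbol because earlier values of these same data placed them high in that cluster, so their high level there is a description and not a test. All 6 were found, 1 feature each, among the 27771 features of the cell matrices and the 17822 features of a table of mean expression by cluster.

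The study compared 1 wildtype library with 1 library from embryos carrying the miR-223(ya303) mutation, both at 27 hours post fertilization. Trunks were dissociated, cells with the kdrl-driven membrane mCherry of Tg(kdrl:hras-mCherry)s896 were sorted by fluorescence, and transcript 3′ ends were sequenced from single cells in droplets. Both lines also carried Tg(5xUAS:eGFP)nkuasgfp1a with a KalTA4 activator at miR-223, labelled ya362 in the wildtype and ya363 in the mutant, so the wildtype animals were transgenic as well. The labels do not give how many embryos were pooled. The kdrl promoter marks endothelium and the early blood that comes from it, but the sort also held erythroid-like, myeloid-like, muscle-like, notochord-like and epidermal-like cells. With 1 library per genotype there was no replicate, and batch and genotype cannot be told apart. No p-value is given, and each interval covers counting error only, leaving out differences between cells, clutches and sorts.

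In the embryonic trunk, hematopoietic stem and progenitor cells emerge from the endothelium of the dorsal aorta, losing endothelial genes such as cdh5, the adhesion molecule of endothelial junctions, and gaining blood genes such as myb, a transcription factor of blood progenitors. Transcription factors of the ETS and GATA families drive this change. Lipid signals act on these cells too, among them prostaglandins and lysophosphatidic acid, and so does the growth-linked control of translation through mTORC1. Of the 6 genes, spi2, lpar5a, ptgdsb.1 and eif4ebp1 touch these layers. spi2 is an ETS factor of the same subfamily as PU.1, lpar5a is a receptor for lysophosphatidic acid, ptgdsb.1 is a prostaglandin D2 synthase of the lipocalin type, pmp22b is a membrane protein with 4 spans of the PMP22 and EMP family, and eif4ebp1 binds the cap-binding protein eIF4E and restrains translation until mTORC1 releases it. No role is given here for zgc:171686, which is known only by its clone name.

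The matrices held 8702 wildtype barcodes with 92241952 UMIs (unique molecular identifiers, 1 per captured transcript) and 9176 mutant barcodes with 125149083. After filters 7481 and 8240 cells were kept, with medians of 8316 and 9778 UMIs, and 75 kept barcodes (1.003% of wildtype cells) occurred in both libraries. The table by cluster gave 15 clusters, of which cluster 8 had the highest score for progenitor markers, with 183 wildtype and 184 mutant cells. Of 12 progenitor markers, 7 (myb, gata2b, gfi1aa, tal1, coro1a, ikzf1 and meis1b) were raised there at least 2-fold over the median cluster. Of these, myb, gata2b, gfi1aa and ikzf1 were highest in this cluster in both libraries, and tal1, coro1a and meis1b in neither. Among the markers not raised, lmo2 had 546 wildtype and 654 mutant UMIs and ptprc 5 and 12. myb reached 253 and 251 CPM (UMI counts scaled to a fixed total per cluster and library, wildtype then mutant), but runx1 had 14 and 11 UMIs, gfi1b had 1 in each library, and itga2b, the CD41 gene of thrombocytes and stem cells, was listed at 0. The cluster is therefore called progenitor-like, and the name does not rest on runx1 or itga2b. Genes of other cells were present in it: the 12 myeloid markers summed to 2458 and 1707 CPM, with lyz at 1171 and 411 CPM and mpeg1.1, marco and csf1ra at 0, the 10 erythroid markers to 4517 and 5021 CPM, and the 12 endothelial markers to 1325 and 1353 CPM. The part of these cells or of their free RNA in the values below was not tested. The composition of other clusters differed much more between the libraries, with 1925 wildtype and 31 mutant cells in endothelial-like cluster 2, and 18 and 157 cells in myeloid-like cluster 11.

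The 6 genes did not share 1 pattern over the clusters. spi2, pmp22b and zgc:171686 were highest in the progenitor-like cluster in both libraries, lpar5a was as high in a myeloid-like cluster, eif4ebp1 was highest there in the wildtype library but came after muscle-like cells in the mutant library, and ptgdsb.1 was higher in epidermal-like cells. In all, 3 of 6 genes had their highest level there in both libraries, against 14.3% of the 3976 features averaging 20 CPM or more in the cluster. That contrast chose the genes, so nothing is read from the difference.

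**Figure D1:**
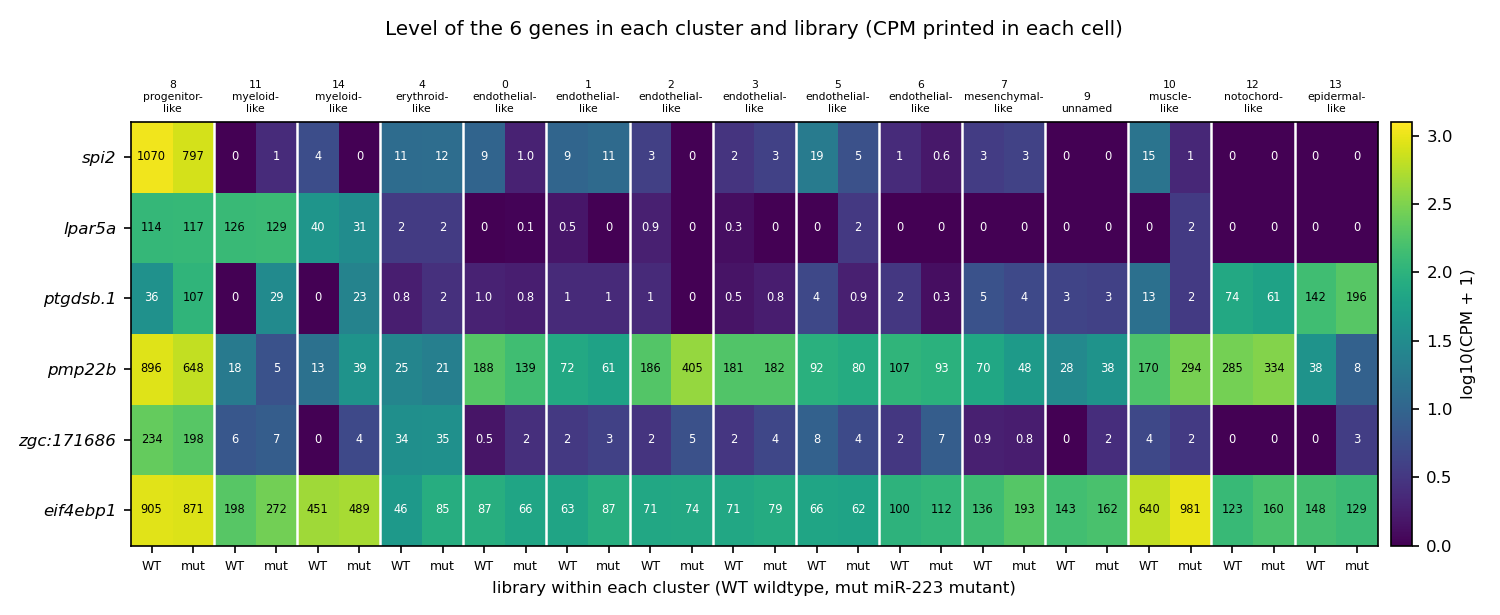
Level of each gene (rows) in each of the 15 clusters, wildtype and mutant library side by side (columns). Colour is log10(CPM + 1), with the CPM rounded to a whole number printed in each cell where it is 1 or more. spi2 is bright in cluster 8 alone among the columns, while eif4ebp1 is bright in clusters 8, 10 and 14 and lpar5a in clusters 8, 11 and 14.

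The transcription factor spi2 was the gene with the largest excess in the cluster. Its level was 1070 CPM in the wildtype library (95% interval 1015 to 1127, 1444 UMIs) and 797 CPM in the mutant library (750.0 to 847, 1062 UMIs). The next highest cluster was endothelial-like cluster 5 in the wildtype at 18.6 CPM and erythroid-like cluster 4 in the mutant at 11.98 CPM, so the progenitor-like cluster stood 57.4-fold and 66.5-fold above the next. Of all spi2 UMIs in the table, 86.1% and 83.9% were in this cluster, and it ranked 1 among the 3976 features by its excess over the highest other cluster. The myeloid-like clusters hold its relative spi1b, the PU.1 gene, at between 380 and 920 CPM, and there spi2 had 0 to 2 UMIs in each library.

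zgc:171686 ranked 8 by the same excess. It was at 234 CPM in the wildtype (209 to 261) and 198 CPM in the mutant (175 to 224), and the next cluster in both libraries was the erythroid-like one at 34.4 and 35.5 CPM, 6.80-fold and 5.59-fold lower. Its level in the erythroid-like cluster did not differ between the libraries beyond counting error, with a ratio of 1.03 (0.855 to 1.24). Cells of the matrices with over 10% globins had a ratio of 0.718 (0.661 to 0.779), and the gap between these ratios was not tested. pmp22b was strong in the cluster but broad: 896 CPM (847 to 948) and 648 CPM (605 to 693) there, against 181 to 188 CPM in endothelial-like clusters 0, 2 and 3 of the wildtype library and 285 and 334 CPM in notochord-like cells. The margin over the next cluster was 3.14-fold in the wildtype and 1.60-fold in the mutant, where the next was cluster 2 with its 31 cells. By the same excess as above, pmp22b ranked 113 among the 3976 features, lpar5a 778, eif4ebp1 828 and ptgdsb.1 3268.

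The lysophosphatidic acid receptor lpar5a was high in the progenitor-like and myeloid-like clusters and low in the erythroid-like one, at 2.45 and 2.46 CPM. It stood at 114 CPM (96.8 to 134) and 117 CPM (99.5 to 137) in the progenitor-like cluster, 126 and 129 CPM in myeloid-like cluster 11, and 40.2 and 30.8 CPM in myeloid-like cluster 14. Progenitor-like and cluster 11 levels did not differ beyond counting error. In 8 of the 15 clusters of each library not 1 lpar5a UMI was counted.

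eif4ebp1, the translation repressor, was found in every cluster. It was at 905 CPM (855 to 957) and 871 CPM (821 to 922) in the progenitor-like cluster, at 640 and 981 CPM in muscle-like cells, and at 451 and 489 CPM in myeloid-like cluster 14. The order of the first 2 clusters differed between the libraries, with the progenitor-like cluster first in the wildtype and the muscle-like cluster first in the mutant. Its lowest levels were 46.1 CPM in the erythroid-like cluster of the wildtype and 61.7 CPM in endothelial-like cluster 5 of the mutant.

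The prostaglandin D2 synthase ptgdsb.1 was higher in other clusters. It was at 36.3 CPM (26.9 to 48.0, 49 UMIs) in the wildtype progenitor-like cluster and 107 CPM (89.8 to 126, 142 UMIs) in the mutant one. Epidermal-like cells had 142 and 196 CPM and notochord-like cells 73.6 and 60.7 CPM, while the highest endothelial-like value was 3.73 CPM. Its tandem neighbour ptgdsb.2, which lies beside it in the GRCz12tu annotation and shares its enzyme family, had 2 and 3 UMIs in the progenitor-like cluster. How reads that match both copies were assigned is not given in the sources used here, so the split between the copies is uncertain.

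The features whose levels followed each gene most closely differed from gene to gene. Over the 30 columns of clusters and libraries (log2(CPM + 1), 9435 candidate features, columns of 1 library sharing its depth and batch), spi2 was nearest to gfi1aa with r = 0.81 and gata2b with r = 0.79, a transcriptional repressor and an activator of blood progenitors, and then to si:dkey-183i3.6 with r = 0.78. For zgc:171686 the nearest were the zinc finger gene blf with r = 0.85, the urea transporter gene slc14a2 with r = 0.83 and myb with r = 0.82. lpar5a followed hmha1b with r = 0.97 and the formin fmnl1a and ccdc88b with r = 0.96 each. eif4ebp1 followed mrpl28, hccsb and mrpl12, genes of mitochondrial ribosomes and of cytochrome c assembly, with r = 0.88, 0.87 and 0.87. pmp22b followed the transcription factor mef2aa with r = 0.82, rp9 and dnajb4, and ptgdsb.1 followed mat2al with r = 0.73, si:ch211-153b23.5 and spaca4l. No pair of the 6 genes came closer than spi2 and zgc:171686 with r = 0.78. The 6 genes were picked as high in the progenitor-like cluster, and gfi1aa, gata2b and myb were among the markers that named it. Features that peak in that cluster rise together in its columns, so these values are descriptions and no link is read from them.

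Within the progenitor-like cluster the libraries differed most for ptgdsb.1. The mutant level was 2.94-fold the wildtype level (2.11 to 4.15, log2 ratio 1.53 with a pseudocount of 1 CPM), which placed it at percentile 99.6 of the 3976 features. spi2 stood at 0.745-fold (0.688 to 0.807) and pmp22b at 0.723-fold (0.661 to 0.789), at percentiles 7.87 and 6.79. zgc:171686 was at 0.847-fold (0.716 to just under 1), lpar5a at 1.03-fold (0.816 to 1.29) and eif4ebp1 at 0.963-fold (0.888 to 1.04), the last pair with intervals that hold equality. Counting a feature as different at 1.5-fold with an interval that excludes 1, 1 of the 6 genes was higher in the mutant, against 6.19% of all 3976 features, and 0 were lower, against 3.07%. The median log2 ratio over all features was 0.06.

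In the matrices, the ptgdsb.1 UMIs came from few cells. Cells that hold myb and no cdh5, with globins at no more than 10% of UMIs and fewer than 2 spi1b UMIs (limits chosen after the data were seen), had ptgdsb.1 at 81.6 CPM in 127 wildtype cells and 111 CPM in 96 mutant cells, a ratio of 1.36 (1.05 to 1.77) beside 2.94 in the cluster. In 51 wildtype and 48 mutant cells chosen instead by gata2b and gfi1aa UMIs with globins at most 10%, a gate also set after the data were seen, it had 6 and 19 UMIs, 9.79 and 34.8 CPM (3.55-fold, 1.36 to 10.9). In the myb gate, the 5 cells with the most ptgdsb.1 held 59.3% of its wildtype UMIs and 63.0% of its mutant UMIs. At 2000 UMIs per cell, in that gate, 12 of 120 wildtype cells (10.0%) and 14 of 93 mutant cells (15.1%) had a ptgdsb.1 UMI, a difference of 5.05 points (-3.83 to 14.7). The table covers part of the UMIs of these genes only, for spi2 1678 of the 3845 UMIs in kept wildtype cells, so cluster and gate need not hold the same cells.

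For spi2, pmp22b and zgc:171686 the mutant was lower in those gated cells as well. spi2 was at 1198 and 683 CPM (0.570-fold, 0.522 to 0.622), pmp22b at 1078 and 736 CPM (0.683-fold, 0.626 to 0.744) and zgc:171686 at 310 and 215 CPM (0.693-fold, 0.589 to 0.813). In cells with both myb and cdh5 under the same limits, 85 wildtype and 65 mutant cells, spi2 was at 744 and 780 CPM (1.05-fold, 0.943 to 1.16) and zgc:171686 at 91.4 and 95.3 CPM (1.04-fold, 0.763 to 1.42), while pmp22b was at 488 and 406 CPM (0.832-fold, 0.722 to 0.957). The spi2 interval of the cells without cdh5 lay below 1 and that of the cells with both genes held 1, and the difference between these ratios was not tested. In the cells chosen by gata2b and gfi1aa, spi2 was at 1030 and 571 CPM (0.554-fold, 0.482 to 0.636). pmp22b there was at 477 and 329 CPM (0.691-fold, 0.571 to 0.835) and zgc:171686 at 139 and 87.8 CPM (0.633-fold, 0.435 to 0.912). eif4ebp1 was lower in that gate, at 617 and 452 CPM (0.732-fold, 0.621 to 0.862), beside 0.923-fold (0.851 to just over 1) in the myb gate. lpar5a had 29 and 21 UMIs (0.812-fold, 0.440 to 1.47).

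**Figure D2:**
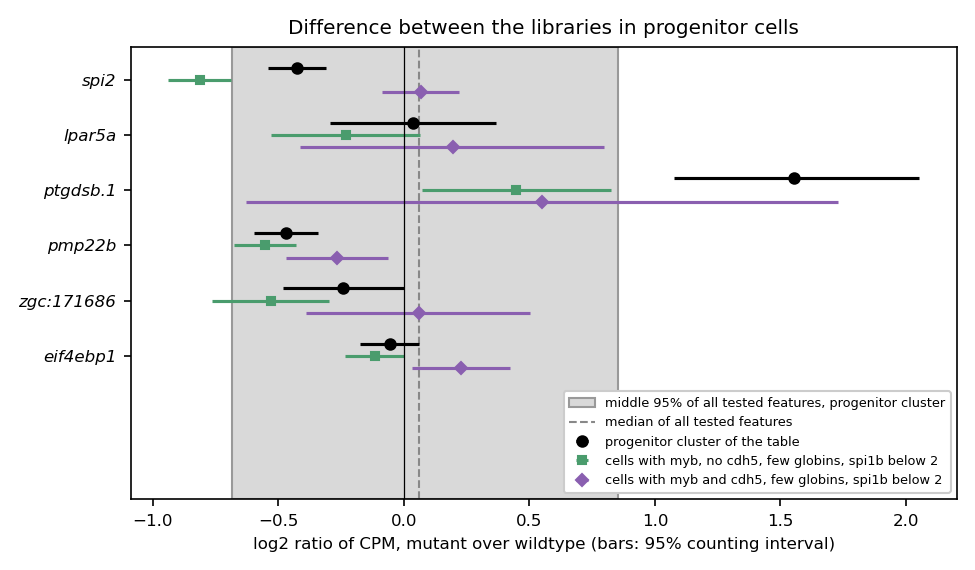
Log2 ratio of CPM, mutant over wildtype, of each gene in the progenitor-like cluster of the table (black), in cells with myb and no cdh5 (green) and in cells with myb and cdh5 (purple), the gated cells with globins at most 10% and spi1b below 2 UMIs. Bars are 95% counting intervals with no pseudocount, the grey band is the middle 95% of all 3976 features in the cluster and the dashed line their median. ptgdsb.1 in the cluster lies to the right of the band at 2.94-fold, and its gated values lie within it. The green spi2 point, at 0.570-fold, lies to the left of the band. The band describes the cluster only, and no such band was made for the gated cells.

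Outside the cluster, eif4ebp1 was higher in the mutant in erythroid-like and muscle-like cells. It went from 46.1 to 85.1 CPM in the erythroid-like cluster (1.85-fold, 1.59 to 2.15), where 30.3% of features were higher by the same measure, and from 640 to 981 CPM in the muscle-like cluster (1.53-fold, 1.35 to 1.74), where 9.02% were. In the matrices, cells with over 10% globins had it at 40.4 and 65.5 CPM (1.62-fold, 1.53 to 1.72). Short of 1.5-fold, eif4ebp1 was at 1.38-fold (1.18 to 1.60) in endothelial-like cluster 1 and 1.41-fold (1.15 to 1.73) in mesenchymal-like cells. In endothelial-like cluster 0 it went the other way, at 0.766-fold (0.651 to 0.907). pmp22b was higher in the mutant in endothelial-like cluster 2, from 186 to 405 CPM (2.18-fold, 1.73 to 2.72, 82 UMIs from 31 mutant cells), where 10.1% of features were, and in the muscle-like cluster, from 170 to 294 CPM (1.73-fold, 1.36 to 2.23). It was lower in epidermal-like cells at 12 and 3 UMIs (0.213-fold, 0.0386 to 0.789), where 3.92% of features were. In endothelial-like clusters 0 and 1 pmp22b stood at 0.738-fold (0.660 to 0.827) and 0.838-fold (0.706 to 0.992). In endothelial-like clusters 3, 5 and 6 its intervals held equality. Cells with cdh5 and no myb had it at 138 and 106 CPM (0.767-fold, 0.737 to 0.798), without a globin limit. With globins at most 10% they had it at 155 and 132 CPM (0.852-fold, 0.818 to 0.887). zgc:171686 in the globin-rich cells was at 26.4 and 19.0 CPM (0.718-fold, 0.661 to 0.779). In endothelial-like cluster 6 it had 3 and 25 UMIs (3.37-fold, 1.03 to 17.4). spi2, under the 20 CPM limit here, was lower in the mutant in endothelial-like clusters 0 (0.111-fold, 0.0502 to 0.241) and 5 (0.264-fold, 0.117 to 0.556). It was also lower in muscle-like cells at 8 and 1 UMIs (0.0816-fold, 0.00184 to 0.609). In the remaining clusters outside the progenitor-like one its intervals held equality. ptgdsb.1, under the 20 CPM limit in both myeloid-like clusters, had 0 wildtype and 41 mutant UMIs in cluster 11, from 18 and 157 cells. Its fold interval there began at 1.25. In cluster 14 it had 0 and 6 UMIs, with an interval from 1.02. Muscle-like cells, also under that limit, went the other way at 7 and 2 UMIs (0.187-fold, 0.0189 to 0.980).

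Most cells with a myb UMI and no cdh5 UMI were globin-rich and not of the progenitor-like kind. Of 602 such cells in the wildtype, 362 had more than 10% globins, 113 of the rest had at least 2 spi1b UMIs, and 127 remained, and of 1142 in the mutant the numbers were 835, 211 and 96. Shares over the whole myb gate therefore mix these kinds in different parts in the libraries, and they are given here with the kinds apart. Each cell was thinned to 2000 UMIs, which left out 7 and 3 of the 127 and 96 cells. Median depths before thinning were 11760 and 10971 UMIs in the remaining cells, 20628 and 17485 in the spi1b-positive cells, 7884 and 7789 in cells with cdh5 and no myb, and 9388 and 10257.5 in cells of other tissues (muscle, neural, epidermal or notochord markers, neither gating gene, globins at most 10%). For spi2, lpar5a and zgc:171686 the last serve as the background for free RNA, while muscle-like, epidermal-like and notochord-like clusters hold eif4ebp1, ptgdsb.1 and pmp22b at levels of their own, so their shares there are no such background.

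In the whole myb gate against cells with cdh5 and no myb, 5 of the 6 genes were found in a larger share of cells in both libraries beyond counting error, all but pmp22b, against 17.7% of the 7547 features with a UMI in at least 1% of cells of either gate. pmp22b was lower in the mutant at 9.58% against 20.01%, a difference of -10.4 points (-12.4 to -8.23), which 41.7% of features showed in that direction in both libraries by counting error, and in the wildtype it was at 22.5% against 24.6% (-2.11 points, -5.55 to 1.64). Since the genes were picked as high in a cluster of myb cells, the direction for the others was fixed by how they were chosen.

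Among the remaining myb cells, spi2 was found in 92 of 120 in the wildtype library (76.7%, 68.1 to 83.9) and 61 of 93 in the mutant library (65.6%, 55.02 to 75.1). It was in 19.5% and 10.4% of the spi1b-positive cells and in 0.956% and 0.536% of cells with cdh5 and no myb, a gate without a globin limit. Other tissues without that limit were at 0.891% and 0.501%, equal to the cdh5 cells within counting error. With globins at most 10% the cdh5 cells were at 0.993% and 0.553%, and other tissues at 1.14% and 0.613%. Cells with both myb and cdh5 (globins at most 10%, no spi1b limit) lay between the remaining myb cells and the cdh5 cells, at 41.0% and 29.2%. With fewer than 2 spi1b UMIs as well, they were at 47.1% and 40.6%, a difference of -6.43 points (-21.8 to 9.53). The difference between the libraries within the remaining myb cells, -11.1 points (-23.2 to 1.08), did not pass counting error, while the difference in CPM above did.

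pmp22b had the largest difference in share between the libraries among the remaining myb cells, with 98 of 120 wildtype cells (81.7%) and 54 of 93 mutant cells (58.1%), a difference of -23.6 points (-35.3 to -11.3). It was in 24.6% and 20.01% of cells with cdh5 and no myb and in 19.1% and 16.8% of other tissues. zgc:171686 was in 54 of 120 cells (45.0%) and 28 of 93 (30.1%), a difference of -14.9 points (-27.1 to -1.73). It was in 0.490% and 0.658% of cells with cdh5 and no myb, a gate without a globin limit, and in 0.228% and 0.409% of other tissues. With globins at most 10% the cdh5 cells were at 0.412% and 0.658%. Without that limit other tissues were at 0.713% and 1.38%. It was also seen in 6.91% and 4.20% of the globin-rich myb cells.

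lpar5a did not separate the remaining myb cells from the spi1b-positive ones. It was in 28.3% and 21.5% of the former and 23.0% and 21.3% of the latter, with 0.210% and 0.171% of cells with cdh5 and no myb, below the 0.911% and 1.43% of other tissues. eif4ebp1 was in 83.3% and 76.3% of the remaining myb cells, 55.8% and 51.7% of the spi1b-positive cells, 13.9% and 15.8% of cells with cdh5 and no myb, and 36.4% and 42.3% of other tissues. ptgdsb.1 was in 4.42% and 6.16% of the spi1b-positive cells, 0.397% and 0.195% of cells with cdh5 and no myb and 4.78% and 2.04% of other tissues.

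**Figure D3:**
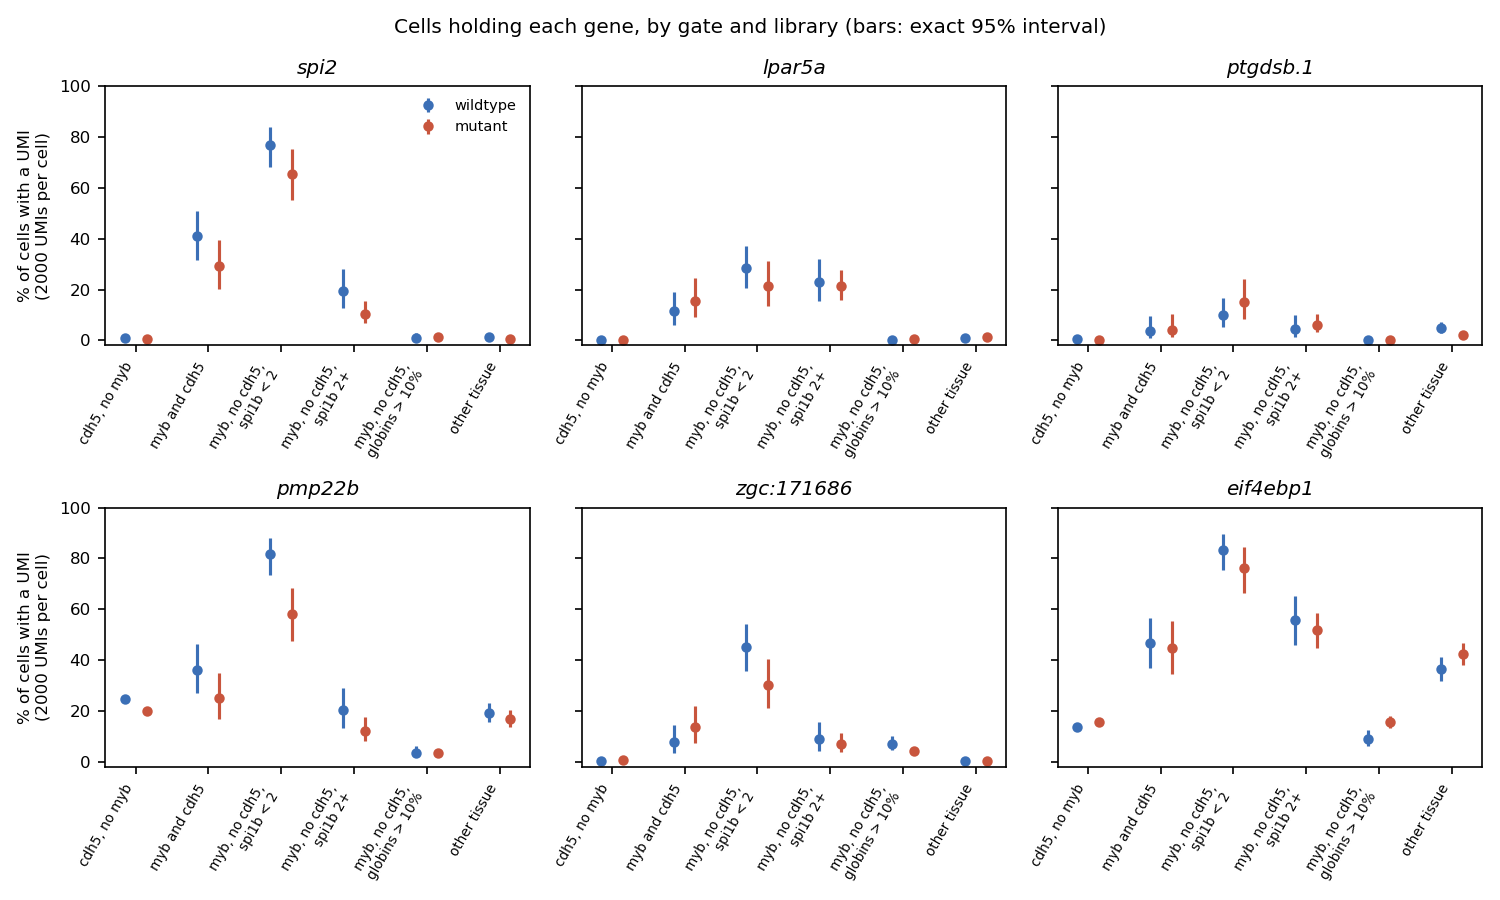
Percent of cells with at least 1 UMI of each gene after thinning to 2000 UMIs, by gate, wildtype in blue and mutant in red, with exact 95% binomial intervals. Gates other than cdh5 without myb hold cells with globins at most 10%, except the gate named for globins above 10%. The gate of myb and cdh5 has no spi1b limit. spi2, pmp22b, zgc:171686 and eif4ebp1 peak in myb cells without cdh5 and with fewer than 2 spi1b UMIs (76.7%, 81.7%, 45.0% and 83.3% in the wildtype). ptgdsb.1 peaks there too, at 10.0% in the wildtype and 15.1% in the mutant, and lpar5a is about level across the spi1b split.

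Seen from the cells that hold each gene, co-detection with myb and with cdh5 was unequal. With all genes read at 2000 UMIs, spi2 was in 249 wildtype and 177 mutant cells, of which 30.1% and 34.5% also held myb, against 2.68% and 2.99% of all cells, and 11.6% and 11.3% held cdh5, against 37.3% and 32.2% of all cells. lpar5a-positive cells held myb in 36.8% and 26.7% and cdh5 in 9.47% and 5.17%. zgc:171686-positive cells held myb in 20.3% and 19.2% and cdh5 in 5.23% and 11.9%. ptgdsb.1-positive cells, 65 and 60 in number, held myb in 13 and 17 cells. pmp22b differed, with cdh5 in 41.8% and 46.2% of its 1477 and 1155 cells and myb in 5.15% and 5.19%, and eif4ebp1-positive cells held cdh5 in 29.2% and 26.0% and myb in 7.93% and 7.06%. These shares are limited by depth, since myb itself was seen at 2000 UMIs in few cells. The genes were picked as high in a cluster that myb helped to name. A raised share with myb therefore follows in part from that choice, and nothing is read from it.

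Counted per cell, several of the genes were often detected together. These counts were not set against what the shares of the single genes would give. Of the remaining myb cells, 89 of 120 wildtype cells (74.2%) and 54 of 93 mutant cells (58.1%) held 3 or more of the 6 genes at 2000 UMIs, and 3 and 1 cells held all 6. Of the spi1b-positive cells 19.5% and 11.8% held 3 or more, and of cells with cdh5 and no myb 0.140% and 0.146%. Cells with both myb and cdh5 (globins at most 10%, no spi1b limit) were at 22.9% and 17.7%. With fewer than 2 spi1b UMIs as well, 19 of 85 wildtype cells and 16 of 64 mutant cells held 3 or more. Under that limit the mutant share was not the lower one. The median was 3 genes in the remaining myb cells and 1 in the spi1b-positive cells of both libraries.

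**Figure D4:**
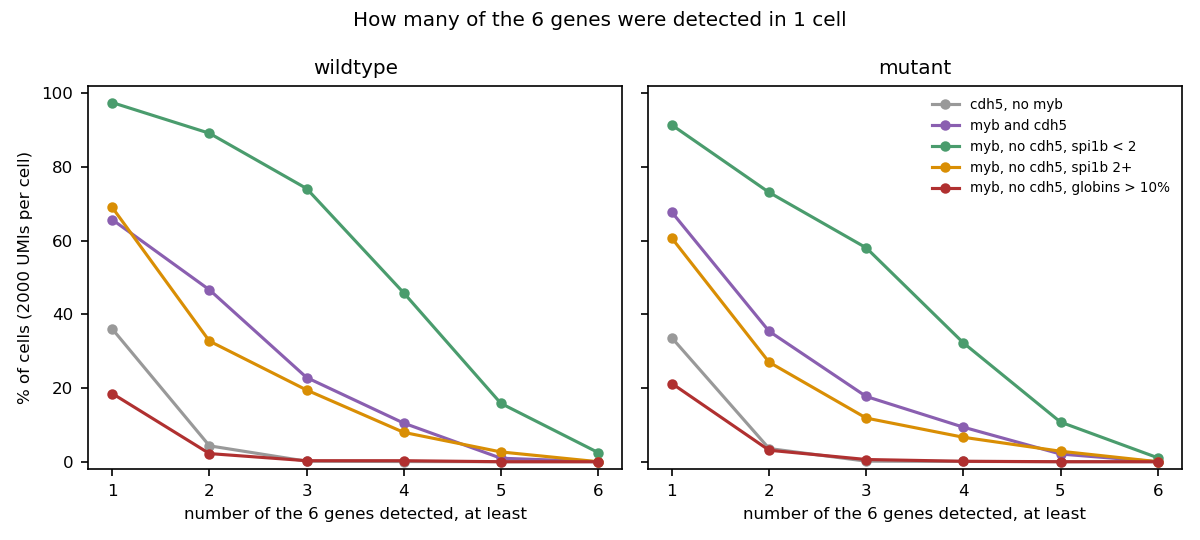
Percent of cells (y axis) holding at least the number of the 6 genes on the x axis, after thinning to 2000 UMIs per cell, in the wildtype (left) and mutant (right) library. Lines are the gates with globins at most 10%, except cdh5 without myb and the globin-rich gate. The line of myb and cdh5 has no spi1b limit. At 3 genes the line of myb cells with fewer than 2 spi1b UMIs is at 74.2% and 58.1%, and the globin-rich and cdh5 lines are below 1%.

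Across cells with a myb UMI and globins at most 10%, 345 in the wildtype and 404 in the mutant, 4 of the genes varied together. With counts scaled to 10000 UMIs and log2-transformed, spi2 and pmp22b had r = 0.67 and 0.73, spi2 and zgc:171686 0.57 and 0.67, spi2 and eif4ebp1 0.65 and 0.60, and pmp22b and zgc:171686 0.68 and 0.73. The same genes ran against the myeloid genes, with spi2 against spi1b at -0.58 in both libraries and against lyz, the lysozyme gene, at -0.59 and -0.67. coro1a, a progenitor marker raised in the cluster, also ran against spi2 (-0.36 and -0.55) and pmp22b (-0.32 and -0.51). With zgc:171686 coro1a had -0.17 and -0.41, and with eif4ebp1 0.0007 and -0.26. lpar5a was weakly related to spi2 at 0.20 and 0.16 and did not run against spi1b (0.18 and 0.21). With the rest of that group it had 0.44 and 0.35 (zgc:171686), 0.41 and 0.26 (eif4ebp1) and 0.38 and 0.24 (pmp22b). ptgdsb.1 stayed at or below 0.37 with every gene shown. All these cells share a library and differ in depth, and spi2 had r = -0.30 and -0.45 with the log2 total of UMIs. The cells also mix spi1b-positive cells with the remaining myb cells. Since the genes were picked as high in the progenitor-like cluster, relations among them and against myeloid genes follow in part from that choice. The values are descriptions only.

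**Figure D5:**
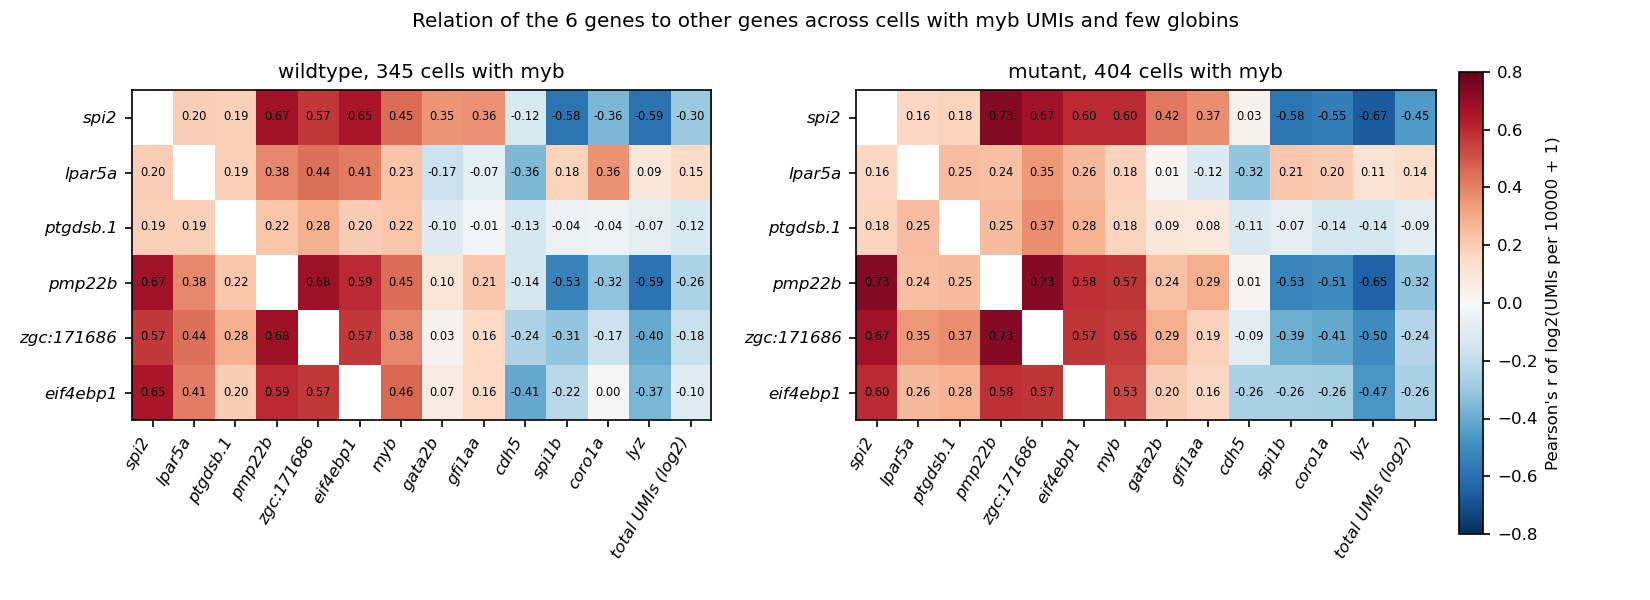
Pearson's r across cells with a myb UMI and globins at most 10%, of log2(UMIs per 10000 + 1), for the 6 genes (rows) against each other, 7 further genes and the log2 total of UMIs (columns), wildtype left and mutant right. Red is positive and blue negative. spi2, pmp22b, zgc:171686 and eif4ebp1 form a red block, and their spi1b and lyz columns are blue.

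The listed hematopoietic genes all had smaller differences between the libraries than ptgdsb.1 where they were tested. Of 25 hematopoietic genes listed, 13 were tested at 20 CPM, 1 was higher in the mutant and 0 were lower, beside 6.19% and 3.07% of all features, with a median log2 ratio of 0.10 beside 0.06 over all features. The 1 higher gene was spi1b, from 51.9 to 90.1 CPM (1.74-fold, 1.28 to 2.37). The genes with the highest levels were lmo2, a bridging cofactor of blood factors, at 405 and 491 CPM, the myeloid factor cebpa at 402 and 374 CPM, and myb. Levels were highest in this cluster in both libraries for 5 of the 13, beside 14.3% of all features. These were myb, gata2b, gfi1aa, ikzf1 and nanos1, of which all but nanos1 were among the markers that named the cluster. Of the 8 tested ETS genes, spi1b alone was higher and 0 were lower, and the highest by the mean of both libraries besides spi1b, fli1a and elf1, were at 262 and 258 CPM and at 62.2 and 90.1 CPM. In the wildtype alone gabpa at 68.9 CPM and ets2 at 67.4 CPM stood above elf1. spi1a, another close relative, had 7 and 11 UMIs. The listed ETS gene spic, which lies beside spi2 in the GRCz12tu annotation, was not among the features by cluster.

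Around lpar5a, 3 of 16 listed genes of lysophosphatidic acid signalling were tested and 2 were higher in the mutant and 0 lower, beside 6.19% and 3.07% of all features. These were the lipid phosphatase genes plpp1a, from 11.1 to 40.5 CPM (3.65-fold, 2.03 to 6.96), and plpp3, from 20.004 to 40.5 CPM (2.03-fold, 1.25 to 3.35), whose products break down lysophosphatidic acid outside the cell. The receptor gene lpar2a was at 44.5 and 57.1 CPM, and enpp2, which encodes the enzyme that makes the ligand, had 1 and 5 UMIs. Around ptgdsb.1, 3 of 21 prostaglandin genes were tested, 0 were higher and ptgr1, a prostaglandin reductase gene, was lower at 54.8 and 34.5 CPM (0.630-fold, 0.426 to 0.922). ptges3b and ptges3a, which also serve as a co-chaperone, were at 294 and 317 CPM and at 89.7 and 87.8 CPM, and the cyclooxygenase genes ptgs1, ptgs2a and ptgs2b had 1 to 8 UMIs each.

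Of 7 genes of the PMP22 family, perp alone was tested, at 94.8 and 72.8 CPM (0.768-fold, 0.584 to 1.01). The duplicate pmp22a was at 13.3 and 24.8 CPM with 18 and 33 UMIs, and emp2 at 14.8 and 15.01 CPM. Of 24 genes of cap-dependent translation and mTORC1, 14 were tested, 0 were higher and eif4a1b, an RNA helicase gene, was lower at 292 and 185 CPM (0.633-fold, 0.537 to 0.744), with a median log2 ratio of -0.12. The highest in this list were eif4a1a at 765 and 677 CPM, eif4ebp3l at 256 and 315 CPM and eif4a1b. The other repressors of the family, eif4ebp2 and eif4ebp3, were at 169 and 194 CPM and at 114 and 96.1 CPM, and 5 of the 14 genes had their highest level in this cluster in both libraries, beside 14.3% of all features. Among the 6 tested myeloid markers, lyz was lower (0.351-fold, 0.318 to 0.387) and spi1b higher (1.74-fold, 1.28 to 2.37). Of other markers, the endothelial gene ecscr was lower at 188 and 101 CPM and the erythroid gene cahz was higher at 48.2 and 81.1 CPM, and their part in the results was not tested.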

How the data were processed

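Raw UMI counts per gene and cell barcode were deposited for 1 wildtype and 1 mutant library. The signal in a second deposited file is the authors' mean UMI count per cell in 15 clusters of each library, for 17822 features. Multiplied by a number of cells found for each column, 100.0% of its 534660 values became whole within 1e-06, so the summed UMIs were recovered and scaled to CPM. No count test was run on them, since each library is 1 sample. The submitters' processing notes name Cell Ranger, Seurat, bcl2fastq and the build GRCz11, and the matrix header names software version 3.0.2. The rule for calling cells and the filter and clustering behind the table are not given in the sources used here. Columns labelled KO were taken as the mutant.

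Barcodes needed 500 or more genes and no more than 10% of UMIs from mitochondrial genes, and Scrublet calls (scanpy 1.11.5, expected share 6%) removed 39 wildtype cells (0.519%) and 224 mutant cells (2.65%), an uneven share. Clusters were named from marker lists, a rebuilt naming that need not match the study's. Shares of cells were read after thinning each cell to 2000 UMIs (seed 7), with gates from all UMIs, and 577 and 389 kept cells under that depth were left out. Intervals are exact Poisson, exact binomial (Clopper-Pearson), Newcombe for differences of shares and exact conditional for ratios, all at 95%. The scripts were tested on simulated data. Python 3.11.15, numpy 2.4.6, scipy 1.17.1 and pandas 2.3.3 were used. The genes, lists, gates and tests were chosen with earlier results of these data known. Genes named beside the 6 were the 3 features nearest to each over the 30 columns among those with at least 200 UMIs, and, of each pathway list, the 3 highest in the progenitor-like cluster and those past 1.5-fold, together with close copies, the gating genes and the markers of other cells. Single genes with few UMIs (runx1, gfi1b, itga2b, ptprc, enpp2 and the cyclooxygenase genes) and the split by gata2b and gfi1aa were named after their values were seen. Sequences and promoter windows were not analysed here.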

Additional observations from a re-analysis of the deposited data

Results flagged for a closer look

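pmp22b went opposite ways in different clusters. Its log2 ratio of mutant over wildtype was -0.47 in the progenitor-like cluster and 1.12 in endothelial-like cluster 2, from 186 to 405 CPM (fold interval 1.73 to 2.72), where the mutant library had 31 cells and the wildtype library 1925. It was also 0.79 in the muscle-like cluster, from 170 to 294 CPM (1.36 to 2.23). What drew attention was that both libraries' difference had the opposite sign in these clusters, each with an interval that excludes equality. No other endothelial-like cluster was higher in the mutant beyond counting error. Cluster 0, with 1846 mutant cells, was at 0.738-fold (0.660 to 0.827) and cluster 1 at 0.838-fold (0.706 to 0.992). Clusters 3, 5 and 6 had intervals that hold equality. Cells with cdh5 and no myb in the matrices were at 0.767-fold (0.737 to 0.798), and with globins at most 10% at 0.852-fold (0.818 to 0.887). The difference between clusters was not tested, since each genotype has 1 library.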

How the results depend on the processing

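Mean UMIs per cell, median-of-ratios size factors and pseudocounts of 0.1 and 10 CPM left all log2 ratios of the 6 genes in the progenitor-like cluster within their counting intervals. Of 63 alternative values of the main results, 50 stayed the same, 12 moved and 1 reversed, all of the last 13 by taking other cells as the progenitors. With all cells that hold myb and no cdh5, mostly globin-rich in different parts, the log2 ratios were -1.80 for spi2, -0.76 for lpar5a, -0.28 for ptgdsb.1 (reversed from 1.53), -1.44 for pmp22b, -0.96 for zgc:171686 and -0.44 for eif4ebp1. Without cells of over 10% globins and of 2 or more spi1b UMIs, a choice made after seeing the data, they were -0.81 for spi2, 0.44 for ptgdsb.1 and -0.53 for zgc:171686, and the other 3 stayed within their intervals. In cells with gata2b and gfi1aa and few globins, chosen likewise, they were -0.85 for spi2, -0.29 for lpar5a, -0.65 for zgc:171686 and -0.45 for eif4ebp1, while ptgdsb.1 at 1.73 and pmp22b at -0.53 stayed within theirs. The mutant share difference of pmp22b between myb cells and cdh5 cells, -10.4 points, became 6.30 points without globin-rich cells and 38.0 points also without spi1b-positive cells. Of 156 further values, 64 stayed, 90 moved and these 2 reversed. No paired analysis was possible because each genotype has 1 library, and no library could be left out. Depth limits co-detection and the low levels of ptgdsb.1.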
